A study of Mus musculus with 40 samples.

Results

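Integrin subunit genes were followed across the RNA-seq libraries of mouse CD4+ T cells. The genes were taken by symbol: *Itgae*, *Itgal*, *Itga4*, *Itga6*, *Itgav*, *Itgb1*, *Itgb2*, *Itgb3*, *Itgb7* and *Itgb8*. All 10 symbols were found among the 21950 genes of the table, each in 1 row, and all 10 passed the filter on low values.

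Integrins are surface receptors made of an α and a β chain, which carry cells along vessel walls, hold them to other cells and anchor them to matrix. The chains pair in fixed sets: αL (*Itgal*) with β2 (*Itgb2*) makes LFA-1, the receptor for ICAMs. α4 (*Itga4*) pairs with β7 (*Itgb7*) for homing to the gut and with β1 (*Itgb1*) for binding VCAM-1 and fibronectin, α6 (*Itga6*) pairs with β1 as a laminin receptor, and αE (*Itgae*, CD103) pairs with β7 to bind E-cadherin on epithelium. αV (*Itgav*) pairs with β8 (*Itgb8*) or β3 (*Itgb3*), among others. The αVβ8 pair on Tregs is known for releasing TGF-β from its latent form, and *Itgae* is known as a gene that TGF-β induces.

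There were 8 groups of 3 libraries: resting and activated conventional T cells (Tconvs), resting and activated thymus-derived Tregs (tTregs, written nTreg in the labels), resting induced Tregs (iTregs), restimulated iTregs, and iTregs restimulated with the ORAI calcium channel inhibitor CM-4620 or with the calcineurin inhibitor cyclosporine A (CsA). The labels call the CM-4620 libraries only ORAI inhibitor libraries and do not say that the CsA libraries were restimulated, so both points come from the study's text. Per the study's methods, Tconvs and tTregs were sorted from spleens of Foxp3 reporter mice, as Foxp3-GFP+ cells in the case of tTregs, at 2 to 4 months of age. The iTregs were made from naive T cells of mice 6 weeks old, cultured for 4 days with antibodies to CD3 and CD28, IL-2 and 2 ng/ml TGF-β, sorted for the Foxp3 reporter and rested in IL-2 for 1 day. iTregs thus differed from the other cells in age of the mice, culture and TGF-β together, and these cannot be told apart. The duration of activation or restimulation before sequencing is not given in the sources used here. No label says whether replicates were separate mice or cultures, so p-values measure only the spread between these libraries.

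Values are normalized counts, gene counts that the authors had divided by a size factor for each library. The libraries held 5256800 to 15685234 reads on genes, and the tTreg groups were the shallowest, with medians of 7582032 (resting) and 7131717 (activated). A floor of 3 reads was worth 2.12 to 5.45 normalized counts, and this covers counting error only. In the resting groups *Foxp3* went with the labels, at 9.65 to 11.3 normalized counts in Tconvs, 7218 to 7767 in tTregs and 1178 to 1338 in iTregs. The list of 5 Treg markers, which holds *Foxp3*, summed to 463 to 490 in resting and 5212 to 5434 in activated Tconvs. It summed to 31927 to 33802 in resting and 27117 to 29250 in activated tTregs. In iTregs the sums were 14620.5 to 18373 at rest and 13338 to 13473 after restimulation. The T cell list summed to 23300 to 42901 over all libraries. Of the 4 platelet markers, *Pf4* and *Ppbp* were at 0 in all 24 libraries, and the list, mostly *Itga2b*, summed to 19.3 to 31.9 in resting Tconvs, 15.1 to 27.2 in activated tTregs and 2.11 to 3.03 in resting iTregs. All 4 macrophage and all 3 erythroid markers stayed below 10 normalized counts in all 24, as did 3 of 4 dendritic, 2 of 3 NK and 2 of 4 B cell markers. The NK list summed to 19.3 to 30.9 in resting Tconvs, mostly *Klrb1c*, and to 0 in all tTreg and iTreg libraries. The B cell list, with *Ms4a1* at 0 in all 24, summed to 128 to 136 in resting tTregs, mostly *Cd79b*, and to 20.2 to 31.9 in resting Tconvs. The CD8 list summed to 99.0 to 236 over all libraries. Their part in the results below was not tested. In bulk samples, fewer cells of a type and less RNA per cell cannot be told apart.

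The promoters of *Itgb8* and *Itga4*, which with *Itgae* had the widest ranges between groups, are shown first, with that of the shared partner *Itgb7*. RefSeq promoter windows (GRCm38.p6, 250 bases before to 50 after a gene's start, 5′ to 3′ on the gene's strand) held 5 of the 10 genes, *Itga4*, *Itgav*, *Itgb1*, *Itgb7* and *Itgb8*. *Itgae*, *Itgal*, *Itga6*, *Itgb2* and *Itgb3* have no window printed here. Capitals mark every match to GGAAA (NFAT core), CAGAC (SMAD box), TGTGGT (RUNX), TGANTCA (AP-1), GTAAACA (forkhead) and GGGCGG (GC box), searched on both strands.
*Itgb8*, chr12:119238227-119238526, minus strand: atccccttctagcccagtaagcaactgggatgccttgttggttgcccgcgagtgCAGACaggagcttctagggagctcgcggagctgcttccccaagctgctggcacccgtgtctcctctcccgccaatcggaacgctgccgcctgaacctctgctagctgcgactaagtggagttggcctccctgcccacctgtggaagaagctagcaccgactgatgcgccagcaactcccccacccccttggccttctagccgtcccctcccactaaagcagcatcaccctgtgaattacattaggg
*Itga4*, chr2:79255176-79255475, plus strand: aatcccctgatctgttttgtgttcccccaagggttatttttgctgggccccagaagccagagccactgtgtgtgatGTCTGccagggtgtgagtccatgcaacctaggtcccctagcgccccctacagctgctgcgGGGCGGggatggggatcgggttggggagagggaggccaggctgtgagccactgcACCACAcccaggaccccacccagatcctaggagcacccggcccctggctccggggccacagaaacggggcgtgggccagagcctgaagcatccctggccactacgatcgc
*Itgb7*, chr15:102231886-102232185, minus strand: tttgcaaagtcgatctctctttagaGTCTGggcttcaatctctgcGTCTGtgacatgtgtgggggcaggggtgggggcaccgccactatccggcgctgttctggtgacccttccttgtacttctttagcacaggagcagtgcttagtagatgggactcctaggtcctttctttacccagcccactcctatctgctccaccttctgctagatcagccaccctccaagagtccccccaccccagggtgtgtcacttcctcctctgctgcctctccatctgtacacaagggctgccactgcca

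The *Itgb8* window held 1 SMAD box and no match to the other letters. The *Itga4* window held 1 SMAD box, 1 RUNX match and 1 GC box, and the *Itgb7* window 2 SMAD boxes. None of these matches overlapped another. Of the 32851 RefSeq windows of this length, 49.6% held the SMAD box, 61.3% the NFAT core, 35.7% the GC box, 16.8% the RUNX letters, 7.81% AP-1 and 3.65% the forkhead letters. A match is a description of letters and not a bound site.

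In the GENCODE annotation of GRCm38, the α chain genes are *Itgae* on chromosome 11 (73090583 to 73147446, plus strand), *Itgal* on chromosome 7 (127296260 to 127335138, plus strand) and *Itga4* on chromosome 2 (79255426 to 79333123, plus strand). The other α chain genes are *Itga6* on chromosome 2 (71745616 to 71858416, plus strand) and *Itgav* on chromosome 2 (83724397 to 83806916, plus strand). The β chain genes are *Itgb1* on chromosome 8 (128685654 to 128733200, plus strand), *Itgb2* on chromosome 10 (77530252 to 77565708, plus strand), *Itgb3* on chromosome 11 (104608000 to 104670476, plus strand) and *Itgb7* on chromosome 15 (102215995 to 102231944, minus strand), beside *Itgb8*, whose position is given with its values. Values are given per gene, so transcript forms are not told apart.

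*Itgb8*, the β chain of the TGF-β-activating pair, was abundant in tTregs and near the floor elsewhere. It stood at 956, 732 and 743 normalized counts in resting tTregs and at 1219, 1494 and 1279 in activated tTregs. Resting iTregs had 5.27, 7.06 and 8.35, and restimulated iTregs 14.1, 15.7 and 11.8. Resting Tconvs had 5.14, 8.44 and 15.8, and activated Tconvs 16.2, 12.1 and 13.4. Thus the 6 tTreg libraries stood apart from the other 18, which overlapped with each other in part. With CM-4620 the values were 7.14, 14.1 and 4.39 and with CsA 8.18, 11.3 and 4.00. In the order of the 8 groups, the step from activated Tconvs to resting tTregs was the only one between neighbours that passed the test. The gene lies on chromosome 12 (119158022 to 119238802, minus strand, GRCm38) and shares no exon bases with another gene. The RefSeq window printed above lies inside this span, so the start that GENCODE gives is farther upstream.

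*Itgav*, its α partner, differed far less, by 3.09-fold between its highest and its lowest group. Resting Tconvs had 139, 94.7 and 86.0 normalized counts and activated Tconvs 118 to 129. Resting tTregs had 261, 237 and 169 and activated tTregs 206 to 247. The 12 iTreg libraries ranged from 245 to 344, and the 6 Tconv libraries lay below all tTreg and iTreg libraries. From Tconvs to resting tTregs was the only step between neighbouring groups that passed the test. Of its exon bases, 5.90% are shared with a gene on the other strand, and the library protocol does not keep strand.

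*Itgae*, the αE chain, was near the floor in Tconvs and well above it in both kinds of Treg. Resting Tconvs had 6.17, 8.44 and 7.90 normalized counts and activated Tconvs 3.59, 1.72 and 2.12, the latter from 4, 2 and 3 reads. Resting tTregs had 285, 180.4 and 229 and activated tTregs 275, 475 and 443. Resting iTregs had 128, 159 and 139.6, restimulated iTregs 126, 166 and 134. All Treg libraries were above all Tconv libraries, while resting and activated tTregs overlapped. With CM-4620 the values were 163, 182 and 168 and with CsA 199, 216 and 237, so the CsA libraries were above all resting and restimulated iTreg libraries.

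*Itgb7*, the β chain that αE and α4 share, was high in all groups. It stood at 1986, 2091 and 1986 normalized counts in resting Tconvs and 1514, 1640.4 and 1553 in activated Tconvs. Resting tTregs had 1587, 2051 and 2033 and activated tTregs 2653, 2249.8 and 2067. Resting iTregs had 1589, 1621 and 1577, and restimulated iTregs 996, 1025 and 887. The restimulated iTregs were the lowest of the 8 groups, with no overlap. The libraries with CM-4620 (1369, 1339.6 and 1265) and with CsA (1265, 1283 and 1129) lay between the restimulated and the resting ones.

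*Itga4*, the α chain for gut and VCAM-1 binding, separated iTregs from every other group. Resting Tconvs had 5043, 4883 and 4906 normalized counts and activated Tconvs 686, 626 and 668. Resting tTregs had 3437, 2609 and 2747 and activated tTregs 1364, 1640.5 and 1386. Resting iTregs had only 120.2, 128 and 146, and the 9 restimulated iTreg libraries, with or without an inhibitor, 76.7 to 119.9. These values put the groups in the order resting Tconvs, resting tTregs, activated tTregs, activated Tconvs, iTregs, and each of those 4 steps passed the test. Resting iTregs lay just above the restimulated ones, which overlapped among themselves. *Itga4* shares 8.04% of its exon bases with *Cerkl* on the other strand, and *Cerkl* itself was at 8.43 to 51.1 normalized counts over the 24 libraries.

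*Itga6*, the laminin receptor's α chain, was high in resting Tconvs and in tTregs. It stood at 2157, 2007 and 2089 normalized counts in resting Tconvs and 638, 650.3 and 669 in activated Tconvs. Resting tTregs had 2219.7, 2485 and 1851 and activated tTregs 1639, 1636 and 1985. Resting iTregs, at 613, 541 and 665, overlapped with activated Tconvs. Restimulated iTregs had 222, 177 and 244, the lowest of all groups. The values were 321, 322 and 273 with CM-4620 and 264, 288 and 276 with CsA, above all restimulated and below all resting iTreg libraries.

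*Itgb1*, the β chain shared by α4 and α6, ranged from 409 to 848 normalized counts. Resting Tconvs (816 to 848) and resting tTregs (696 to 734) were the highest groups. Activated Tconvs (409 to 433) and restimulated iTregs (412 to 442) were the lowest and overlapped. Activated tTregs had 543 to 565, resting iTregs 561 to 594, and iTregs with CM-4620 or CsA 478 to 539.5. No step between neighbouring groups passed the test for this gene.

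The LFA-1 chains had the smallest ranges of the 10 genes. *Itgal* ranged from 1512 normalized counts in an activated tTreg library to 2753 in an activated Tconv library, a 1.60-fold range between group means. *Itgb2* had a 1.76-fold range, at 2311 to 2569.9 in resting Tconvs and resting tTregs, 2726 to 3356 in activated tTregs, 3878 to 4125 in activated Tconvs and 3893 to 4644 in the 12 iTreg libraries. Resting cells taken from the spleen thus had the lowest *Itgb2*, and activated Tconvs overlapped with iTregs.

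*Itgb3*, a β partner of αV that is also known from platelets, was highest in Tconvs and resting tTregs. Resting Tconvs had 937, 878 and 843 normalized counts and activated Tconvs 815, 844 and 832. Resting tTregs had 689, 875 and 1015 and activated tTregs 413, 325 and 425. Resting iTregs had 326, 344 and 371, and restimulated iTregs 205, 214 and 209.8. Activated tTregs overlapped with resting iTregs, and restimulated iTregs were below both. With CM-4620 (132, 172 and 150.1) and with CsA (174, 149.8 and 158) all values lay below those of the restimulated libraries. *Itga2b*, the αIIb chain that pairs with β3 on platelets and a member of the platelet list, was at 26.1 ± 6.04 in resting Tconvs, 14.5 ± 5.42 in resting tTregs and 2.47 ± 0.489 in resting iTregs. It was thus low in resting iTregs as *Itgb3* was, while *Pf4* and *Ppbp* were at 0 in all 24 libraries. The platelet list, which holds *Itga2b*, summed to 19.3 to 31.9 in resting and 7.18 to 12.9 in activated Tconvs, whose *Itgb3* values overlapped. In tTregs it summed to 10.3 to 20.9 at rest and 15.1 to 27.2 after activation, while *Itgb3* was lower after activation. The part of platelet RNA in *Itgb3* was not tested.

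**Figure D1:**
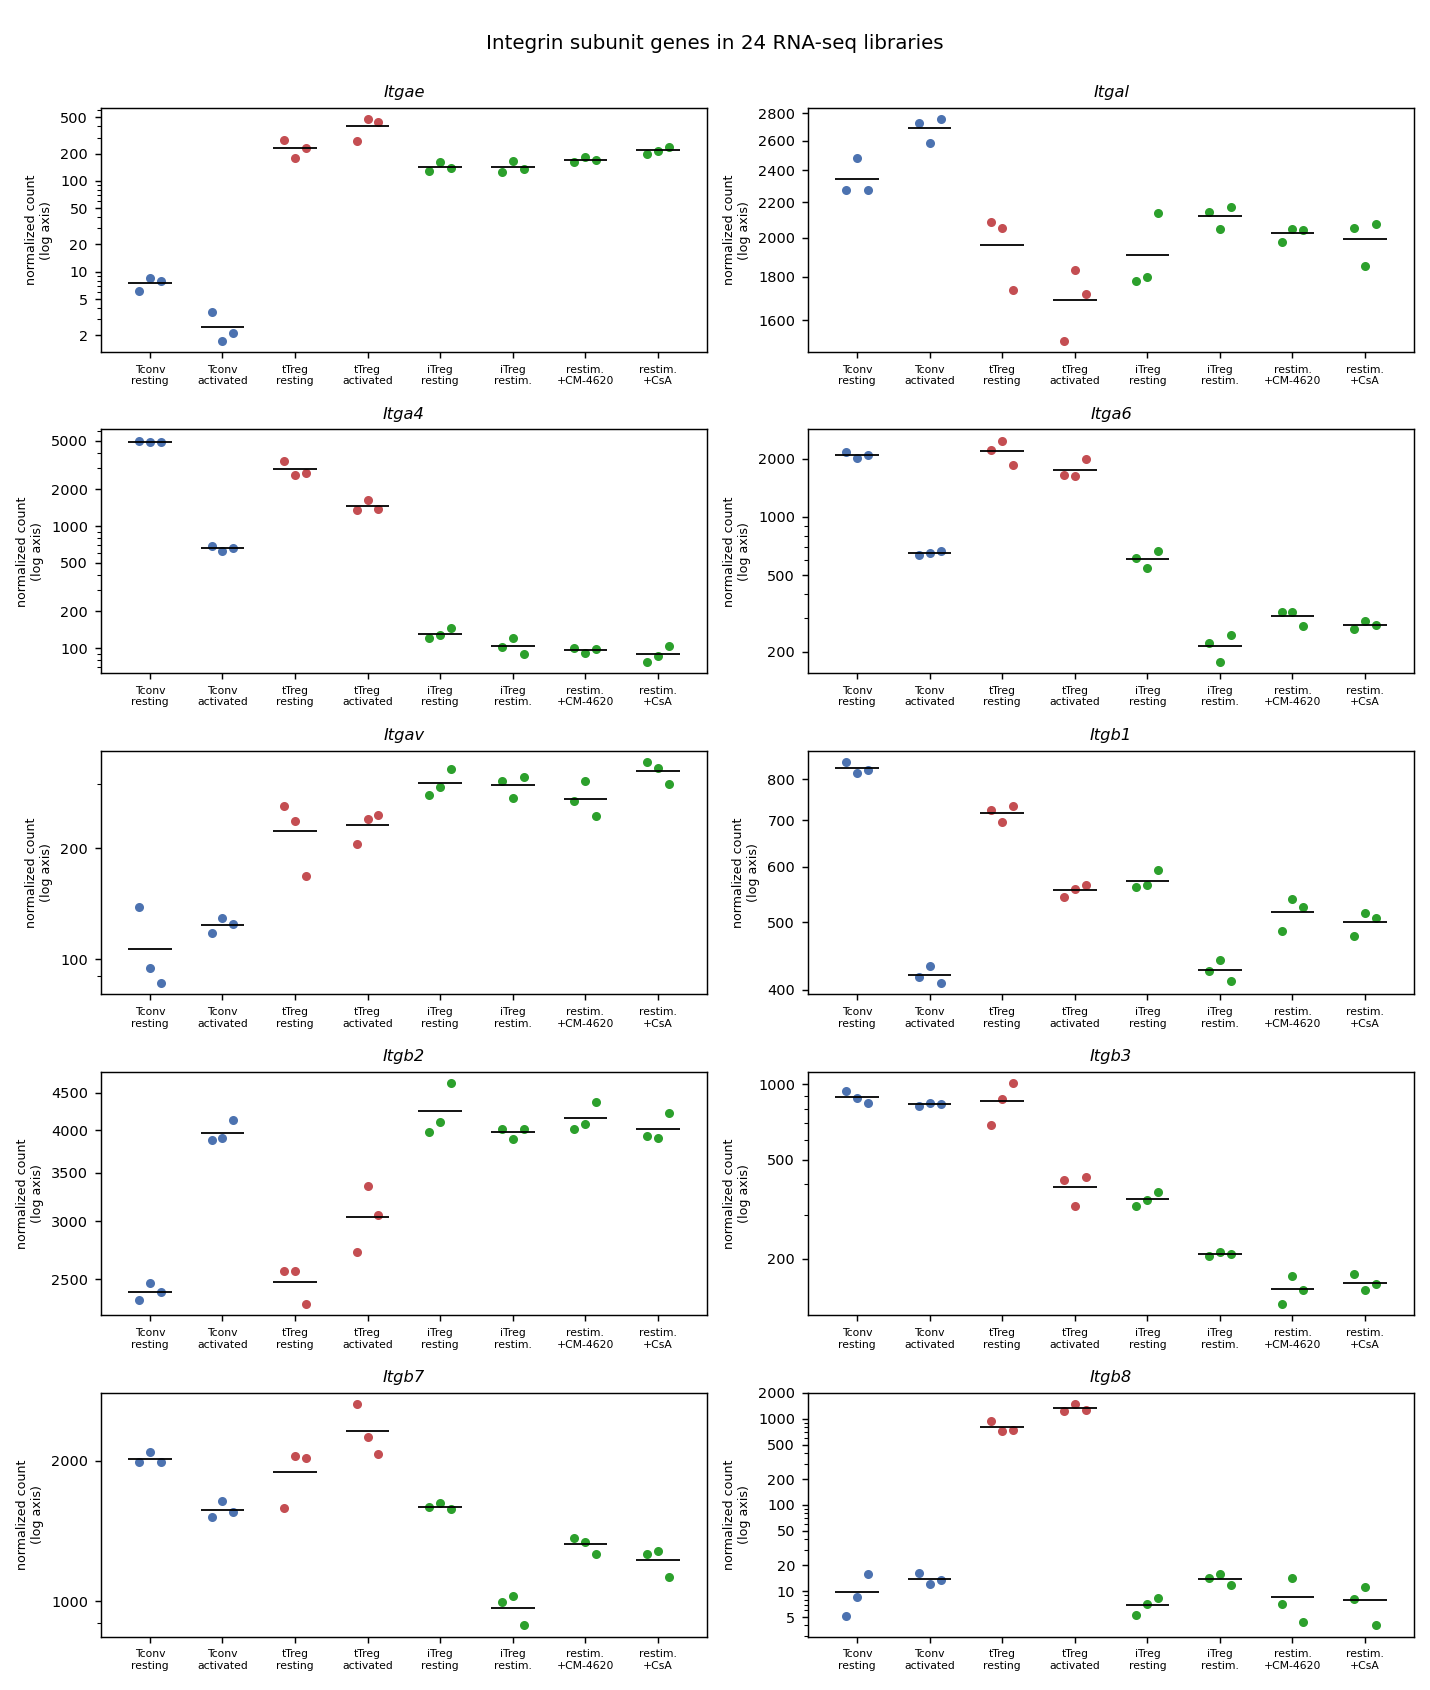
Normalized counts (log axis) of the 10 integrin genes in the 24 libraries, 3 points a group, with the group mean as a line. *Itgb8* was at 732 or more in the 6 tTreg libraries and at 16.2 or less in the other 18, and *Itga4* was at 146 or less in the 12 iTreg libraries and at 626 or more in the other 12.

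The first question was how activation through the T cell receptor changed these genes in Tconvs and in tTregs. A gene was called at an adjusted p below 0.05 (limma, Benjamini-Hochberg over the 11725 genes tested) with an absolute log2 fold change above 0.5, on the scale of log2(normalized count + 1), which understates the change of low genes. In Tconvs 5 of the 10 genes were called, 1 higher and 4 lower, where 50.3% of all genes tested were called. *Itga4* fell by 2.90 ± 0.12 on the log2 scale (SE, adjusted p = 9.92e-15), from 4944 ± 86.4 to 660.0 ± 30.7 normalized counts (SD, n = 3). *Itga6* fell by 1.67 ± 0.12 (adjusted p = 4.95e-11) and *Itgb1* by 0.98 ± 0.06 (adjusted p = 7.79e-12), so both chains of the laminin receptor were lower. *Itgae* fell by 1.32 ± 0.21 (adjusted p = 1.48e-05), from 24 to 9 reads over 3 libraries each. Scaled by the size factors, the ratio of read rates was 0.323, with a counting interval (95%, exact) of 0.132 to 0.720. Such intervals hold counting error only and leave out the spread between libraries. *Itgb2* rose by 0.72 ± 0.07 (adjusted p = 1.79e-08), from 2406 ± 62.9 to 3969.7 ± 135 normalized counts.

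In tTregs 3 of 10 were called, 1 higher and 2 lower, beside 23.2% of all genes. *Itga4* fell by 1.00 ± 0.12 (adjusted p = 1.92e-06), from 2931 ± 443 to 1464 ± 154 normalized counts. *Itgb3* fell by 1.14 ± 0.12 (adjusted p = 3.66e-07), from 859.6 ± 163 to 388 ± 55.0, with no overlap of the libraries. *Itgae* rose by 0.76 ± 0.21 (adjusted p = 0.00726), from 231 ± 52.3 to 398 ± 108, but its libraries overlapped and the call was lost without replicate 2 (0.45, adjusted p = 0.184), without replicate 3 (0.67, adjusted p = 0.119) and when the fit held just these 6 libraries (adjusted p = 0.0646). Over 16 alternatives its adjusted p ranged from 0.000357 to 0.184. *Itgb8*, at 810.2 ± 126.5 and 1330.5 ± 145, differed by 0.72 ± 0.36 and was not called (adjusted p = 0.117), although the libraries did not overlap. Its SE comes from 1 estimate of spread over all 24 libraries, which for *Itgb8* takes in the groups near the floor. The lack of a call is therefore not a measure of the spread in tTregs alone. When the limma fit held just these 6 libraries, the SE was 0.15 and *Itgb8* passed (adjusted p = 0.0155). It passed in limma with 5 in place of 1 added to the normalized count as well (adjusted p = 0.0297). It also passed with edgeR (adjusted p = 0.0015) and DESeq2 (adjusted p = 3.57e-05) on the recovered reads, and its adjusted p ranged from 3.57e-05 to 0.348 over the alternatives.

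A term for the response in tTregs minus that in Tconvs was then tested, and 6 of the 10 genes were called, 5 with a higher response in tTregs and 1 with a lower one, beside 36.6% of all genes. *Itgae* differed by 2.08 ± 0.30 on the log2 scale (adjusted p = 9.42e-06), with a lower value in activated Tconvs and a higher one in activated tTregs. The former rests on 24 and 9 reads, and the call of the latter was lost without replicate 2 or replicate 3. The fall of *Itga4* was smaller in tTregs by 1.91 ± 0.17 (adjusted p = 1.24e-08), and that of *Itga6* by 1.36 ± 0.17 (adjusted p = 8.91e-07). *Itgb1* differed by 0.61 ± 0.09 (adjusted p = 6.46e-06) and *Itgb7* by 0.66 ± 0.13 (adjusted p = 0.000345), though *Itgb7* was called in neither response alone, with values of -0.37 in Tconvs and 0.30 in tTregs. *Itgb3* differed the other way, by -1.05 ± 0.17 (adjusted p = 4.77e-05). The median over the 10 genes was 0.38, against 0.05 over all genes tested.

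**Figure D2:**
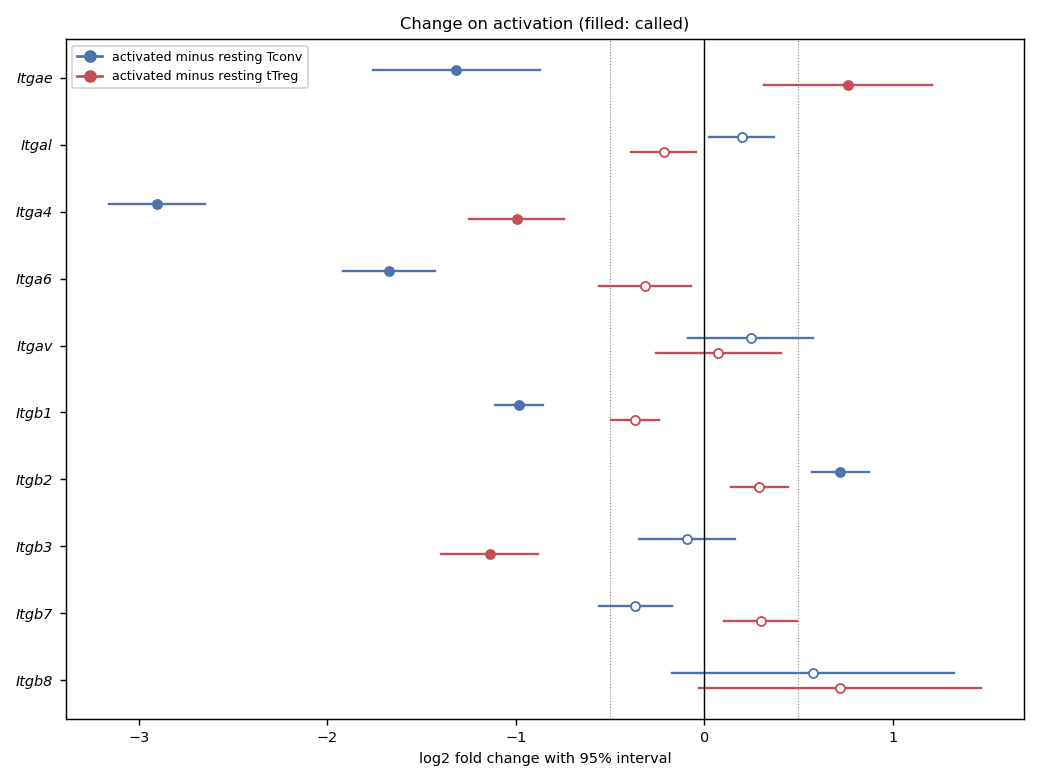
Log2 fold change of each gene on activation, in Tconvs (blue) and tTregs (red), with 95% intervals; filled points were called and dotted lines mark 0.5 in either direction. The points of *Itga6* lie at -1.67 and -0.31 and those of *Itgb3* at -0.09 and -1.14.

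The next question was how far Tregs and Tconvs differed in the same state. At rest, 4 of 10 genes were called between tTregs and Tconvs, 3 higher and 1 lower in tTregs, beside 39.3% of all genes. *Itgb8* was higher by 6.34 ± 0.36 (adjusted p = 2.25e-12), 82.7-fold by the ratio of group means. *Itgae* was higher by 4.76 ± 0.21 (adjusted p = 4.23e-14), a ratio of read rates of 31.5 with a counting interval of 21.0 to 49.5. *Itgav* was higher by 1.06 ± 0.16 (adjusted p = 7.77e-06) and *Itga4* lower (-0.76 ± 0.12, adjusted p = 1.80e-05). The other 6 genes lay between -0.26 and 0.06.

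After activation, 8 of 10 were called between tTregs and Tconvs, 6 higher and 2 lower in tTregs, beside 48.6% of all genes. *Itgb8* was higher by 6.49 ± 0.36 (adjusted p = 1.84e-12). *Itgae* was higher by 6.84 ± 0.21 (adjusted p = 1.07e-16), a ratio of read rates of 166 with a counting interval of 86.8 to 363. *Itga4* was now the higher one in tTregs, by 1.14 ± 0.12 (adjusted p = 5.33e-08), the reverse of its order at rest. *Itga6* (1.42), *Itgav* (0.89) and *Itgb7* (0.56) were also higher in tTregs, and *Itgal* (-0.67) and *Itgb3* (-1.11) lower. *Itgb7* was not called without replicate 1 (0.43) or with edgeR (0.50), and scaling each library to the same total, which moved the median of all genes from 0.04 to 0.26, took the call of *Itgal* away (-0.46).

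The next question was how iTregs stood against Tconvs, the kind of cell they were made from, and against tTregs. Between resting iTregs and resting Tconvs, 7 of 10 genes were called, 3 higher and 4 lower in iTregs, beside 64.3% of all genes. *Itga4* was lower (-5.23 ± 0.12, adjusted p = 1.70e-19), with 132 ± 13.5 against 4944 ± 86.4 normalized counts, or 37.6-fold by the ratio of means. *Itgae* was higher by 4.08 ± 0.21 (adjusted p = 1.70e-13), a ratio of read rates of 18.8 with a counting interval of 12.5 to 29.7. *Itgav* (1.52) and *Itgb2* (0.81) were higher and *Itga6* (-1.78), *Itgb3* (-1.35) and *Itgb1* (-0.53) lower. *Itgb8* was not called (-0.35 ± 0.36, interval -1.10 to 0.40), but was called lower with quantile normalization (-1.12, adjusted p = 0.00962), which moved the median of all genes from 0.04 to -0.11. Over 15 alternatives its adjusted p ranged from 0.00962 to 0.801.

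Against activated Tconvs, 5 of 10 were called, 2 higher and 3 lower in resting iTregs, beside 42.6% of all genes. *Itgae* (5.39) and *Itgav* (1.27) were higher, and *Itga4* (-2.32), *Itgb3* (-1.26) and *Itgb8* (-0.93) lower. That of *Itgb8* compared 6.89 ± 1.55 with 13.9 ± 2.08 normalized counts and was lost without replicate 1 (adjusted p = 0.265) or replicate 2 (adjusted p = 0.0676), with a range from 0.000792 to 0.265 over 16 alternatives. *Itga6*, *Itgb2* and *Itgb7* differed from activated Tconvs by -0.11, 0.09 and 0.03, and none of these was called. *Itgal* (-0.4997, adjusted p = 2.80e-05) and *Itgb1* (0.45, adjusted p = 1.91e-06) differed in limma but stayed below the threshold of size. *Itgal* was called with quantile normalization (-0.61), without replicate 3 (-0.57) and with edgeR (-0.57).

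Between resting iTregs and resting tTregs, 6 of 10 were called, 1 higher and 5 lower in iTregs, beside 64.0% of all genes. *Itgb8* was lower (-6.69 ± 0.36, adjusted p = 3.26e-13), 117.5-fold by the ratio of means, and so was *Itga4* (-4.46 ± 0.12, adjusted p = 4.30e-18). *Itga6* (-1.84) and *Itgb3* (-1.29) were lower and *Itgb2* (0.77) higher, the last with a call that equal totals took away (0.46), under which the median of all genes moved from 0.03 to -0.28. *Itgae*, 142 ± 16.1 against 231 ± 52.3 normalized counts, was lower (-0.68 ± 0.21, adjusted p = 0.00681), without a call when replicate 1 (-0.44) or replicate 3 (-0.67, adjusted p = 0.0757) was left out, the latter the highest over 16 alternatives and 0.000307 the lowest. *Itgav* differed by 0.45 ± 0.16 and did not reach the threshold of size.

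With both cells stimulated, 6 of 10 were called between restimulated iTregs and activated tTregs, all 6 lower in iTregs, beside 59.3% of all genes. The differences were -6.49 ± 0.36 for *Itgb8* (adjusted p = 8.15e-13), -3.80 ± 0.12 for *Itga4* (adjusted p = 1.21e-16) and -3.03 ± 0.12 for *Itga6* (adjusted p = 2.21e-15). *Itgae* (-1.45), *Itgb7* (-1.25) and *Itgb3* (-0.87) were lower as well. The median over the 10 genes was -1.06, against 0.03 over all genes tested. Whether restimulation and activation lasted equally long is not given in the sources used here.

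**Figure D3:**
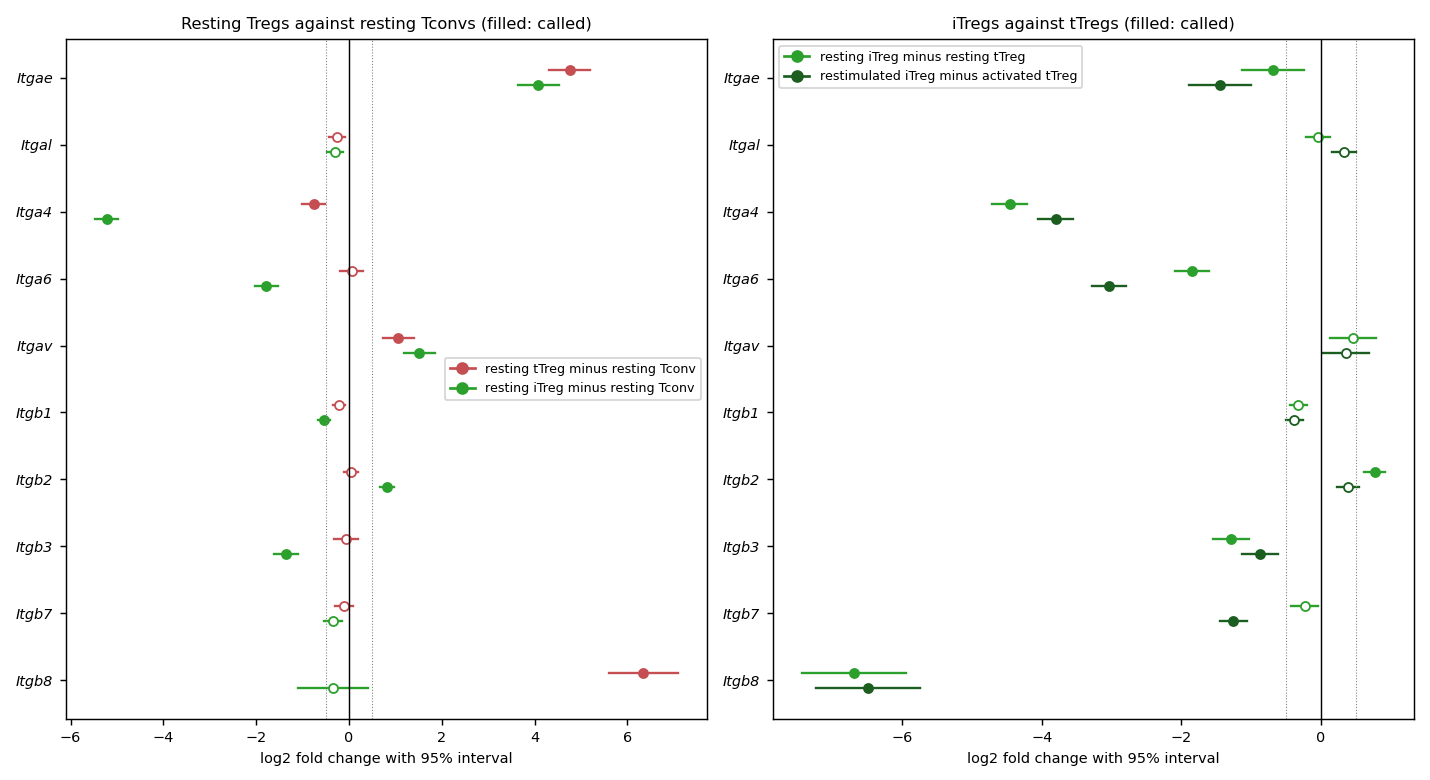
Log2 fold changes with 95% intervals between resting Tregs and resting Tconvs (left) and between iTregs and tTregs (right); filled points were called and dotted lines mark 0.5 in either direction. *Itgae* lies at 4.76 and 4.08 in the left panel, while *Itgb8* lies at 6.34 for tTregs and -0.35 for iTregs.

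The last question was how restimulation changed these genes in iTregs, and whether CM-4620 or CsA altered that. On restimulation 3 of 10 were called, all 3 lower, beside 10.4% of all genes. *Itga6* fell by 1.50 ± 0.12 (adjusted p = 1.09e-08), from 607 ± 62.6 to 214 ± 34.2 normalized counts. *Itgb7* fell by 0.72 ± 0.09 (adjusted p = 1.11e-05), from 1596 ± 22.6 to 969.6 ± 72.7, and *Itgb3* by 0.72 ± 0.12 (adjusted p = 0.000236), from 347 ± 22.8 to 209.8 ± 4.29. *Itgb1* differed by -0.43 ± 0.06 with an adjusted p of 3.43e-05, short of the threshold of size. *Itgae* differed by -0.01 ± 0.21, and *Itgb8*, with 41 reads after restimulation and 23 at rest, by 0.92 ± 0.36 (adjusted p = 0.0785).

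With CM-4620, 1 of 10 was called against restimulation alone, beside 1.98% of all genes. *Itga6* was higher by 0.52 ± 0.12 (adjusted p = 0.0139), and that call was lost without replicate 1 (0.51, adjusted p = 0.248) or replicate 2 (0.35, adjusted p = 0.310), the highest over 16 alternatives, with 0.00557 the lowest. *Itgb7* (0.45 ± 0.09, adjusted p = 0.00766) and *Itgb1* (0.28 ± 0.06, adjusted p = 0.0123) were on the higher side and *Itgb3* (-0.48 ± 0.12, adjusted p = 0.0324) on the lower, all below the threshold of size. Of the 3 genes that fell on restimulation, *Itga6* and *Itgb7* thus had values nearer to rest with CM-4620 and *Itgb3* had values farther from it.

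With CsA, 0 of 10 were called by limma, beside 1.59% of all genes, and 1 of 10 was called by edgeR and by DESeq2. At an unadjusted p under 0.05 limma gave 6 of 10, but the share of all genes at that level was not counted, so this count has no background. The 1 gene was *Itgae*, at 217 ± 19.2 with CsA against 142 ± 21.1 without it, a difference of 0.62 ± 0.21 with an adjusted p of 0.134 over all 24 libraries, 0.00593 in a fit of the 12 iTreg libraries, 0.0459 with edgeR and 0.0450 with DESeq2. Over 16 alternatives its adjusted p ranged from 0.00593 to 0.626. The SE of *Itgae* was 0.12 in the fit of the 12 iTreg libraries, against 0.21 with the spread shared by all 24. The 3 CsA libraries were above the 3 restimulated ones. *Itgb7* (0.34), *Itga6* (0.38), *Itgb1* (0.23) and *Itgb3* (-0.39) had the same signs as with CM-4620.

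Between both inhibitors 0 of 10 were called by limma, by edgeR or by DESeq2, and 0 had an unadjusted p under 0.05 with limma, beside 0.0853% of all genes called. The intervals of the difference reached from -0.78 to 0.10 for *Itgae* and from -0.10 to 0.39 for *Itga6*, so these libraries cannot tell a difference within those bounds from none. Both inhibitors were given at a single condition each, and doses are not compared here. The comparisons with each inhibitor share the restimulated libraries, just as those above share the resting Tconv, tTreg and iTreg libraries with each other.

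Against resting iTregs, 2 of 10 were called with CM-4620, beside 5.11% of all genes, and 3 of 10 with CsA, beside 7.04%, all lower. *Itga6* differed from rest by -0.99 ± 0.12 with CM-4620 (adjusted p = 1.05e-05) and by -1.13 ± 0.12 with CsA (adjusted p = 1.11e-06). The same values were -1.20 ± 0.12 (adjusted p = 1.58e-06) and -1.11 ± 0.12 (adjusted p = 2.89e-06) for *Itgb3*. *Itga4* was called with CsA, 88.9 ± 13.9 against 132 ± 13.5 normalized counts (adjusted p = 0.00321), and had -0.44 ± 0.12 with CM-4620. *Itgae*, on the higher side with CsA (0.61 ± 0.21, adjusted p = 0.0616), was called under 6 alternatives, among them edgeR (adjusted p = 0.0195), DESeq2 (adjusted p = 0.0166) and a fit of the 12 iTreg libraries (adjusted p = 0.00234), with a range from 0.00234 to 0.419 over 16 alternatives.

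**Figure D4:**
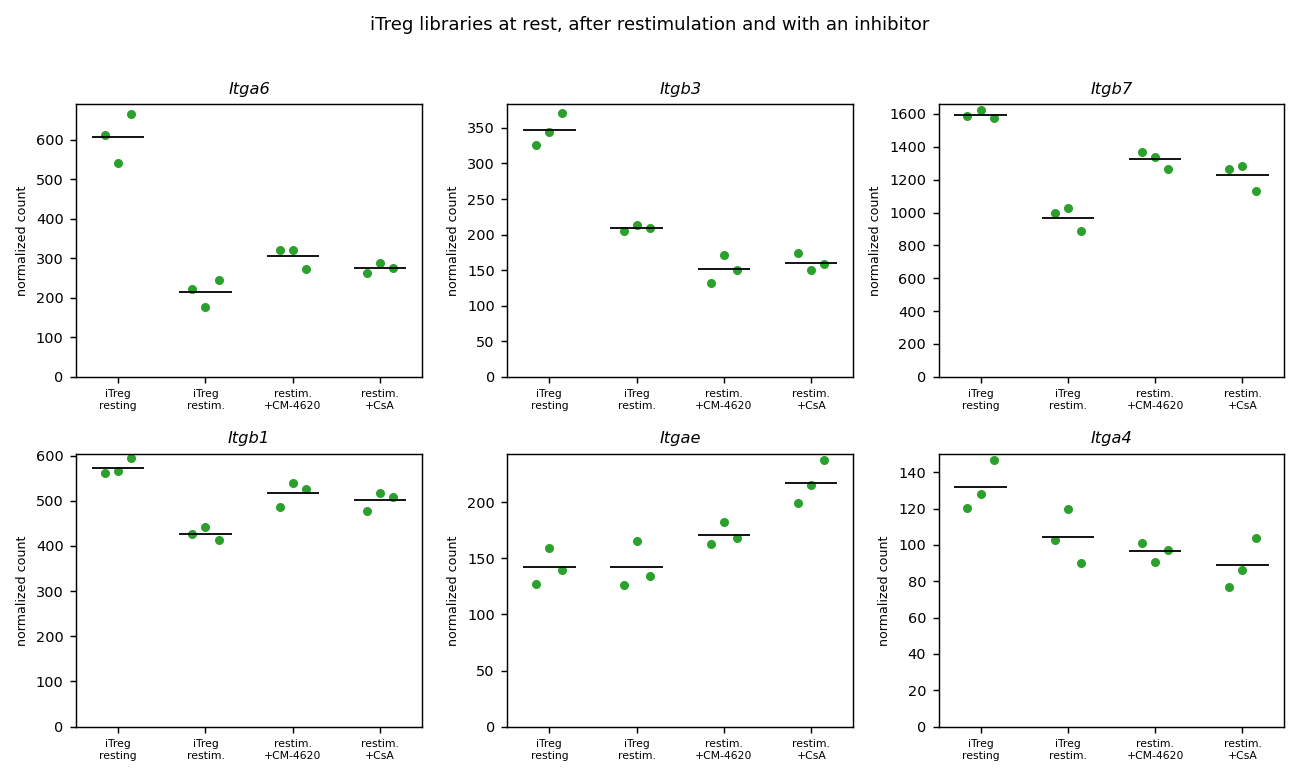
Normalized counts of 6 integrin genes in the 12 iTreg libraries, 3 points a group, with the group mean as a line and axes that start at 0. *Itga6* and *Itgb7* fall on restimulation, from 607 to 214 and from 1596 to 969.6, and lie between those means with either inhibitor, while *Itgb3* goes from 347 to 209.8 and lies below that with either inhibitor.

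Levels can be set side by side between genes only per length. Per kb of exon, *Itgb2* was the highest of the 10 genes in all 8 groups, followed by *Itgb7*. In resting Tconvs *Itgb2* had 788 ± 20.6 normalized counts per kb and *Itgb8* 0.886 ± 0.493. Among the 5 α chains, *Itga4* took 37.1% ± 0.64 of the summed level per kb in resting Tconvs, 25.5% ± 2.80 in resting tTregs and 2.21% ± 0.06 in resting iTregs. *Itgal* took 37.4% ± 1.71 in resting Tconvs and 68.1% ± 0.91 in resting iTregs. The order depended in part on the length used: with the longest transcript in place of all exon bases, *Itgal*, *Itga4* and *Itga6* changed places in resting Tconvs, and *Itgb7* was no longer the second in restimulated iTregs.

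The ratio of partner genes within a library shows how much of each chain's mRNA was present. Per kb, *Itgav* was at 0.283 ± 0.0502 of *Itgb8* in resting tTregs and 0.180 ± 0.0173 in activated tTregs, so *Itgb8* was the more abundant mRNA there. In resting iTregs the same ratio was 46.0 ± 7.50 and in restimulated iTregs 22.5 ± 4.66. For the other αV partner, the ratio of *Itgav* to *Itgb3* was 0.0656 ± 0.0138 in resting Tconvs, 0.149 ± 0.0584 in resting tTregs, 0.476 ± 0.0102 in resting iTregs and 0.780 ± 0.0656 in restimulated iTregs.

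For the gut homing pair, *Itga4* stood at 0.485 ± 0.0205 of *Itgb7* in resting Tconvs and 0.0836 ± 0.00722 in activated ones. It stood at 0.316 ± 0.0981 in resting tTregs and at 0.0163 ± 0.00181 in resting iTregs. *Itgae* stood at 0.00224 of *Itgb7* in resting Tconvs. The ratio was 0.0766 ± 0.0287 in tTregs at rest, 0.107 ± 0.0381 in tTregs after activation and 0.0538 ± 0.00547 in iTregs at rest. In iTregs, therefore, *Itgae* mRNA exceeded *Itga4* mRNA per kb beside the same β chain, and in Tconvs and resting tTregs it was the other way round. LFA-1 chains stayed within 0.209 to 0.452 in all 8 group means. mRNA ratios are not ratios of chains at the surface, which were not measured here.

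**Figure D5:**
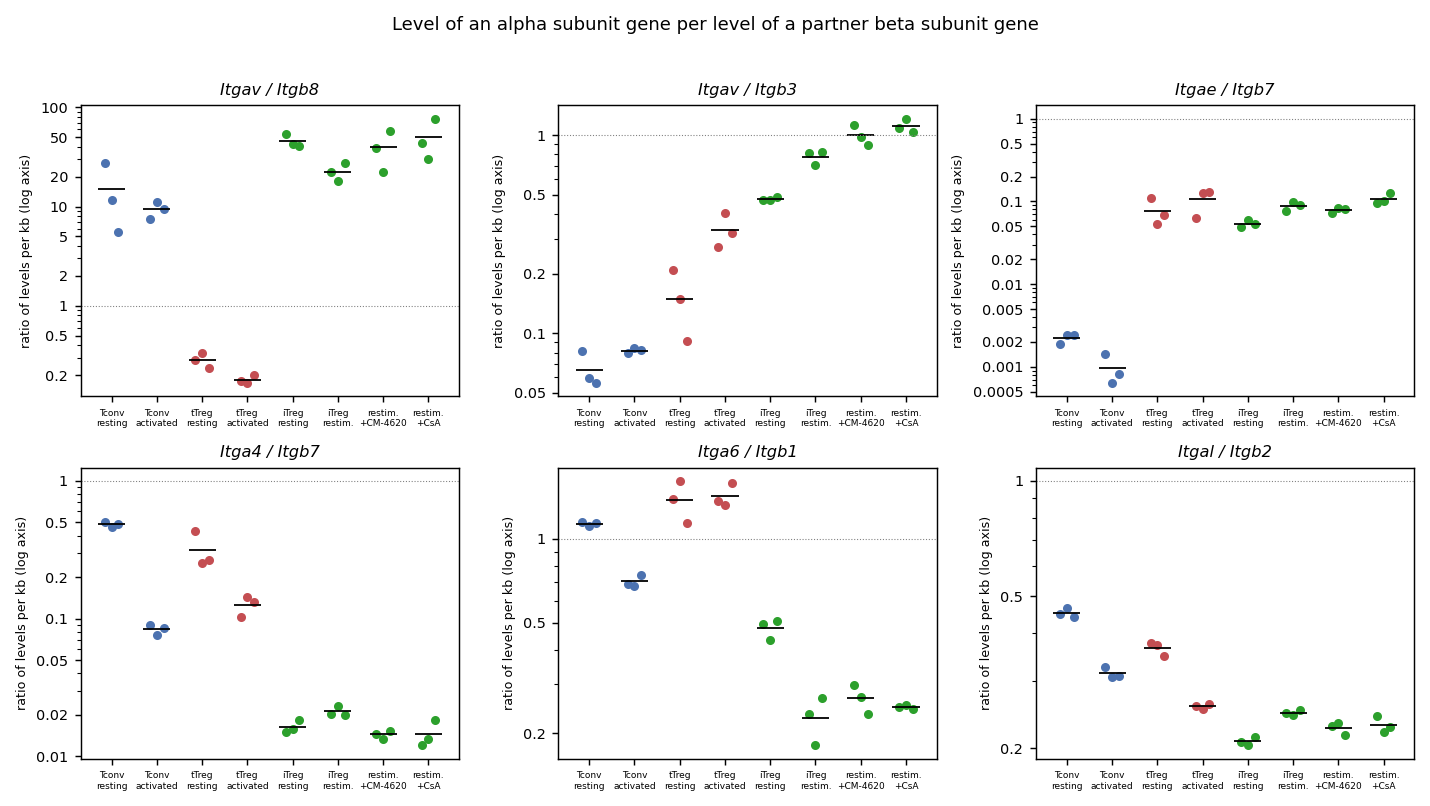
Ratio of normalized counts per kb of exon (log axis) of an α to a β gene in each of the 24 libraries, with group means as lines and a dotted line at 1. *Itgav*/*Itgb8* is below 1 in the 6 tTreg libraries and above 1 in the other 18, and *Itga4*/*Itgb7* is lowest in the 12 iTreg libraries.

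Among tested genes outside the 10, those whose 8 group means of log2 values ran most like each member's were sought over 6289 genes with an SD of group means of at least 0.5. For *Itgae* they were *Lamc1* (r = 0.99), *Ptprj* (0.99) and *Mmp14* (0.99), for *Itgb8* *Gm3512*, *Myo1d* and *Cyp4f18* (0.99 each), and for *Itga4* *Rb1cc1*, *Tbx6* and *Kpna4* (above 0.99 each). *Dcun1d4* and *Ermp1* (0.99 each) were among those most like *Itga6*, and *Vim*, *Rara* and the fibronectin receptor chain *Itga5* most like *Itgav* (0.99 each). *Itgb3* went with *AI987944* (0.99), *Kbtbd8* (0.98) and *BC147527* (0.97), *Itgb7* with *Sez6l2* (0.98), *Card9* (0.97) and *Loxl4* (0.97), *Itgb1* with *Tespa1* (0.99), *Pank1* (0.98) and *Txnip* (0.97), *Itgb2* with *Mcm5*, *Rbmxl1* and *Chek1* (above 0.99), and *Itgal* with *Zfp141* (0.97), *Tmem250-ps* (0.93) and *Gm14410* (0.93). These are over 8 points that share libraries and many contrasts, with no test. Between members the highest value was that of *Itga4* and *Itga6* (0.95) and the lowest that of *Itga4* and *Itgb2* (-0.93).

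The other integrin subunits behaved unevenly. Of 16 genes listed, 8 passed the filter. On activation of Tconvs 6 of these 8 were called lower and 1 higher, 87.5% of them beside 50.3% of all genes, with a median of -1.46 against -0.03. In tTregs 1 was called lower, 12.5% beside 23.2%. *Itga7*, a laminin receptor chain like *Itga6*, fell in Tconvs from 191 ± 11.9 to 12.3 ± 2.24 normalized counts (-3.86 ± 0.14), and the difference of responses was 3.46 ± 0.20 (adjusted p = 6.72e-12). *Itga5* was higher in resting iTregs (108.5 ± 6.18) than in resting Tconvs (20.4 ± 4.99). *Itgb5*, another partner of αV, fell on restimulation of iTregs from 34.0 ± 10.7 to 6.43 ± 3.96 (adjusted p = 0.000366).

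Of 28 genes for integrin activation and adaptors, 25 were tested. Between resting iTregs and resting Tconvs 6 were called higher and 14 lower, 80% of those tested beside 64.3% of all genes, with a median of -0.61 against 0.04. *Rasgrp2*, the exchange factor that switches on Rap1, was at 109 ± 28.7 in resting iTregs and 711 ± 60.3 in resting Tconvs, and *Apbb1ip*, which links Rap1 to talin, at 159.5 ± 37.0 and 911 ± 67.5. Both fell on restimulation of iTregs, *Rasgrp2* by 1.13 ± 0.23 and *Apbb1ip* by 0.63 ± 0.17, among 5 called lower and 0 higher, 20% of those tested beside 10.4% of all genes. On activation of Tconvs 10 were called lower and 3 higher, 52% of those tested beside 50.3% of all genes. The latter included *Parvg* and *Fermt3*, the kindlin of blood cells (2748 ± 38.5 to 5015 ± 331).

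Of 13 ligand genes 8 were tested, and laminin chains led them. *Lama5* was at 0 in the 3 resting Tconv libraries, at 677 ± 82.9 in resting tTregs and at 650.3 ± 85.7 in resting iTregs. *Lamc1* was at 11.2 ± 4.41, 627 ± 32.5 and 344 ± 52.8 in the same groups. In all, 5 ligand genes were called higher and 2 lower in resting tTregs than in resting Tconvs, 87.5% of those tested beside 39.3% of all genes. In resting iTregs 6 were called higher and 1 lower, 87.5% beside 64.3%. *Spp1*, osteopontin, was at 0 in resting tTregs and 35.3 ± 8.40 in resting iTregs.

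Of 11 genes for handling latent TGF-β, 8 were tested. *Lrrc32* (GARP), which holds latent TGF-β at the cell surface for αVβ8, was at 6194 ± 935 in resting tTregs, 1471 ± 216 in resting iTregs and 7.40 ± 3.39 in resting Tconvs. It fell on restimulation of iTregs by 0.94 ± 0.19 (adjusted p = 0.00107) and was higher with CM-4620 (0.74 ± 0.19, adjusted p = 0.0296) and with CsA (0.71 ± 0.19, adjusted p = 0.0385) than without. *Tgfb3* rose on restimulation from 15.0 ± 2.26 to 68.8 ± 6.42, and *Nrros* fell from 470.1 ± 31.8 to 195.5 ± 27.9. So in iTregs *Lrrc32* and *Itgav* were present at levels where *Itgb8* stayed near the floor.

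All 10 integrin-associated surface proteins were tested. The tetraspanin *Cd81* was higher in resting iTregs (4030 ± 80.0) and in resting tTregs (2621 ± 330) than in resting Tconvs (465 ± 61.8), and *Cd9* lower (294 ± 9.97 and 520.4 ± 50.3 against 2312 ± 86.7). On restimulation of iTregs 1 was called higher and 2 lower, 30% of those tested beside 10.4% of all genes. With CM-4620 and with CsA 0 were called, beside 1.98% and 1.59%.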

How the data were processed

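RNA was measured by a modified SMART-seq2 protocol, which keeps no strand and uses no molecular identifiers, in 24 libraries of 8 groups of 3. The submitters' processing notes name cutadapt 1.18, STAR 2.5.3, RSEM 1.3.0 and DESeq2 1.26. The authors deposited a normalized signal: each gene's count had been scaled by its library's size factor. 100% of them came out as whole reads (within 0.01) once the factor was undone, so counts could be recovered from the deposited values. No column went unused (0). The libraries held 5256800 to 15685234 reads on genes, and the spread between replicates was 2.85 to 39.4 times the counting variance. By pairs of libraries it was 13.8 to 39.4 times in tTregs, 3.14 to 9.97 times in Tconvs and 2.85 to 18.1 times in iTregs.

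Values were tested as log2(normalized count + 1) with limma 3.58.1 (trend) in R 4.3.3, in 1 fit of all 24 libraries with a term per group, on the 11725 genes that reached 10 normalized counts in 3 or more libraries. This fit gives each gene 1 estimate of spread, shared by groups whose spread was not equal. All p-values are two-sided and adjusted by Benjamini-Hochberg over all genes tested. A gene is called where its adjusted p is below 0.05 and its log2 fold change exceeds 0.5 in size. edgeR 4.0.16 and DESeq2 1.42.0 on the recovered reads were alternatives chosen after seeing the data. The steps were tested on simulated data. Ratios of read rates are scaled by the size factors, and their intervals are exact at the 95% level for counting error alone. They pool the reads of a group and leave out the spread between libraries, so they are too narrow for the ratio between groups. Lengths and positions came from a GENCODE annotation of GRCm38 and promoters from RefSeq. Tables and plots were made with Python 3.11.15 and matplotlib 3.10.9.

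The 10 genes and the gene lists were chosen with earlier results of these data known. Named were all 10 genes, per other list at most the 2 largest rises and 2 largest falls among called genes of a comparison, and the 3 genes most like each of the 10. Of the latter, 1 gene is not reported here. Chromatin libraries of the series were not analysed here.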

Additional observations from a re-analysis of the deposited data

Results flagged for a closer look

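The effect of activation differed between Tconvs and tTregs for 6 of the 10 integrin genes by the test of the difference itself, in limma with Benjamini-Hochberg adjustment. In the same test 36.6% of all genes were called. The response in tTregs minus that in Tconvs was 2.08 on the log2 scale for *Itgae*, 1.91 for *Itga4*, 1.36 for *Itga6*, 0.61 for *Itgb1* and 0.66 for *Itgb7*, and it was -1.05 for *Itgb3*. That of *Itgb7* did not reach the threshold of size without replicate 1 (0.43, adjusted p = 0.0246). The value of *Itgae* rests on 9 reads in the 3 activated Tconv libraries together.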

How the results depend on the processing

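Over 2386 values of single genes under the alternatives, 0 called values turned their direction, 35 lost a call and 62 gained one. Of these, 14 lost and 30 gained calls came from alternatives that kept the rule for a call. Of 247 counts under alternatives, 229 stayed within 1.5 times the reported one. With a log2 fold change above 1, 3 of the 10 genes were called on activation of Tconvs, beside 3126 of all 11725 tested. On activation of tTregs 1 was called (beside 842), and 5 between activated tTregs and activated Tconvs (beside 2880). On restimulation 1 was called (beside 461), 0 for CM-4620 (beside 82) and 1 for CM-4620 against resting iTregs (beside 201). With the adjusted p alone, 8 were called on activation of tTregs (beside 4677 of 11725) and 10 between restimulated iTregs and activated tTregs (beside 8545). The count was 4 for CM-4620 (beside 409), 1 for CsA (beside 374) and 5 for CsA against resting iTregs (beside 1618). CM-4620 gave 2 genes with quantile normalization (beside 247 of all genes) and 0 to 1 when 1 replicate was left out (beside 69 to 92). CsA gave 1 with only the groups compared, with 1 fit of the 12 iTreg libraries, and with edgeR or DESeq2 on the recovered reads, both chosen after seeing the data. Of all genes these called 326, 324, 258 and 259 in the same order. Leaving out 1 replicate gave 5 to 6 calls for activation of Tconvs, 2 to 3 for that of tTregs and 5 to 8 for their difference. Over all genes, 11534 to 11545 tested, these were 5371 to 5625, 2075 to 2893 and 3527 to 3941. The fit with the replicate number as a block changed no count, with 5, 3 and 6 calls for those comparisons, beside 5926, 2730 and 4303 of all genes. Deviations of same-numbered libraries correlated by 0.11 on average in iTregs (-0.02 to 0.24) and by -0.05 in the other cells (-0.40 to 0.11), against -0.05 and 0.02 for different numbers. Not every pair exceeded 0.1, so the numbers were not taken to pair the libraries. Scaling to equal totals moved the median of all genes from -0.01 to 0.24 between resting tTregs and Tconvs, where it changed no call of a member. It took or gave calls for *Itgal* and *Itgb1* between activated tTregs and activated Tconvs. The same scaling did so for *Itgb1*, *Itgb2* and *Itgb7* between resting iTregs and resting tTregs, and for *Itgb1* between restimulated iTregs and activated tTregs. The cause of these changes was not tested. Depth limits *Itgae* in Tconvs and *Itgb8* outside tTregs, both within a few times the floor of 3 reads.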
